A study of Mus musculus with 22 samples.

Results

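Adiponectin receptor 1 acts on fatty acid use through AMP-activated protein kinase (AMPK) and the PPAR transcription factors, and 40 genes of that route were followed in retina and retinal pigment epithelium (RPE) of mice lacking the receptor. The genes were taken from a fixed list of 8 roles: AMPK subunits, PPAR receptors and coactivators, APPL adaptors, the carnitine shuttle, mitochondrial and peroxisomal beta-oxidation, electron transfer flavoproteins, and PPAR target genes. The rule itself used no measured value, but the members, roles and lists were chosen with earlier results of these data known. All 40 were found among the 53801 genes of the bulk count tables and among the 19324 genes of the single-cell matrix.

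All mice were C57BL/6J, either WT or AdipoR1-/- (KO), and the labels name no cell type to which the knockout was restricted. Bulk RNA-seq was done on whole retina and on RPE at P30, with 4 libraries per tissue and genotype. RPE cells had been shaken off the opened eyecup and pelleted, so the RPE libraries could also hold cells of neighbouring tissues. Single-cell RNA-seq of the retina was done at 3 ages (P19, P25 and P30), each genotype and age giving 1 library from 4 pooled retinae, and the P30 pair was sequenced in another batch and on another instrument than the 4 younger libraries. The labels give no animal for a library, so the p-values measure the spread between libraries.

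Bulk libraries held between 20133143 and 38409496 counts. The single-cell libraries held between 2558 and 5633 cells, 26764 in all, with medians of 1349 to 4357 UMIs (unique molecular identifiers) per cell, and 49 of 26715 distinct barcodes occurred in more than 1 library. Adipor1 itself lay between 589 and 607 CPM (counts per 1000000 counts of the library) in WT retinas and between 136 and 142 CPM in KO retinas, and between 374 and 479 CPM in WT RPE and 139 and 152 CPM in KO RPE. In KO retinas the summed level of 7 rod markers was 29616 to 33990 CPM, against 57383 to 63212 CPM in WT retinas, and the summed level of 10 microglia and macrophage markers was 236 to 274 CPM against 69.4 to 74.1 CPM, with all 10 markers higher. In a bulk library, fewer cells of a type and less RNA per cell cannot be told apart.

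As background, AMPK is a 3-subunit kinase that senses cellular energy and, when active, favours fatty acid entry into mitochondria. PPAR alpha is a nuclear receptor that is activated by fatty acids and, with the coactivators PGC-1 alpha and PGC-1 beta, drives transcription of genes for fatty acid oxidation. Photoreceptors and the RPE are both known to oxidize fatty acids, and the RPE takes up the lipid of shed photoreceptor outer segments every day.

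In KO retina at P30, Ppara, both PGC-1 genes and several enzymes of long-chain fatty acid oxidation fell. Of the 7 members listed under the role of PPAR target genes, 5 rose. Of the 39 members with enough counts to be tested, 15 were lower in KO and 8 were higher by edgeR's quasi-likelihood test at an adjusted p below 0.05, and 16 did not pass. Over all 19381 genes tested, 14.7% were lower and 16.2% were higher. The median log2 fold change was -0.06 over the members and 0.00 over all genes. A fold change of at least 1.5 together with the adjusted p, the limit for a differentially expressed gene (DEG) in the study, was met by 6 members, and 10.0% of all genes met it. Without overlap between the groups, 14 members had all 4 KO libraries below all 4 WT libraries and 9 had them above, where 15.2% and 16.2% of all genes did. Scaling to library totals alone, without TMM factors (a correction for a few abundant genes taking up reads), moved the median of all genes by 0.11 on the log2 scale and gave 11 members higher and 7 lower.

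**Figure D1:**
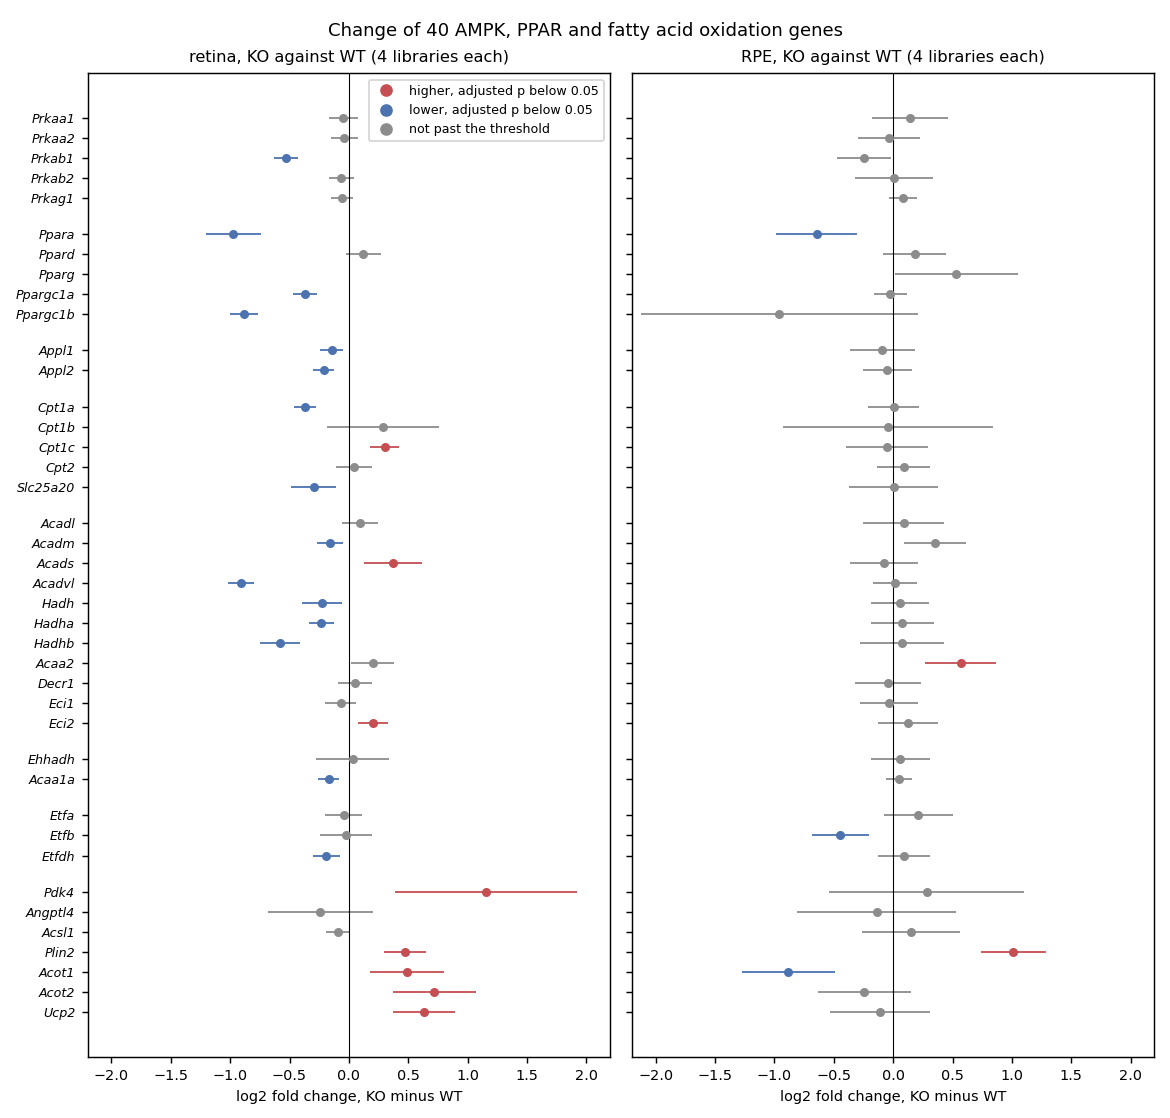
Log2 fold change (KO minus WT) of each member in retina (left) and RPE (right), with 4 libraries per genotype and tissue. Points are the edgeR estimates, bars are 95% confidence intervals, and colour marks an adjusted p below 0.05. In retina 15 members were lower and 8 higher, and in RPE 3 were lower and 2 higher.

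Of the 4 PPAR receptors and coactivators tested in retina, 3 fell. Ppara, which encodes PPAR alpha (chr15:85734983-85802819, GRCm38.p6, plus strand), lay at 20.9, 15.2, 21.1 and 21.2 CPM in WT retinas 1 to 4 and at 10.9, 9.80, 10.4 and 8.79 CPM in KO retinas 1 to 4. All KO values were below all WT values, with WT library 2 below the other WT libraries. The log2 fold change was -0.97 (SE 0.11, adjusted p = 1.39e-05). Ppargc1b, encoding PGC-1 beta, lay at 80.3, 78.9, 73.0 and 71.3 CPM in WT and at 43.7, 41.9, 38 and 40.7 CPM in KO. Every KO retina was well below every WT retina, with a log2 fold change of -0.88 (SE 0.06, adjusted p = 7.21e-08). With all 16 libraries in a joint edgeR fit, Ppargc1b did not pass in retina (-0.89, adjusted p = 0.1435). Ppargc1a, encoding PGC-1 alpha, lay at 61.1, 66.6, 65.8 and 65.4 CPM in WT and at 49.3, 48.6, 52.7 and 49.6 CPM in KO, again without overlap. Its log2 fold change was -0.37 (SE 0.05, adjusted p = 4.01e-05). Ppard, the PPAR delta gene, did not pass (log2 fold change 0.12, SE 0.07, adjusted p = 0.194), and Pparg was too low in retina to be tested, with a mean of 0.0620 CPM in WT.

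AMPK subunits moved little, with 1 of 5 called. Prkab1, the beta 1 scaffold subunit, fell from 154 ± 9.52 CPM to 107 ± 3.53 CPM (mean ± SD, n = 4 each), a log2 fold change of -0.53 (SE 0.05, adjusted p = 1.37e-06). The catalytic subunits Prkaa1 and Prkaa2, the beta 2 subunit Prkab2 and the nucleotide-binding subunit Prkag1 had log2 fold changes between -0.06 and -0.04 and did not pass. Both APPL adaptors, which bind the intracellular part of the adiponectin receptors, were lower in KO, Appl2 by a log2 fold change of -0.21 (SE 0.04, adjusted p = 0.00112) and Appl1 by -0.14 (SE 0.05, adjusted p = 0.0287). In the fit blocked by replicate number, Appl1 had an adjusted p of 0.0578, and it did not pass without WT library 1, WT library 4, KO library 3 or KO library 4 (-0.15 to -0.10, adjusted p = 0.0608 to 0.0830).

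The carnitine shuttle, which carries long-chain fatty acids into mitochondria, did not move as a unit. Cpt1a, the outer-membrane transferase that sets the rate of entry, lay at 253, 271, 269 and 274 CPM in WT retinas and at 199, 199, 215 and 213 CPM in KO retinas. No KO library reached the WT range, and the log2 fold change was -0.37 (SE 0.04, adjusted p = 2.03e-05). Slc25a20, the inner-membrane carrier, was lower as well (-0.30, SE 0.09, adjusted p = 0.0208), though not without KO library 4 (-0.26, adjusted p = 0.0556). Cpt1c, the neuronal form of the transferase, was higher (0.30, SE 0.06, adjusted p = 0.00120), and the inner-membrane transferase Cpt2 (0.04, SE 0.07) and the muscle form Cpt1b (0.29, SE 0.22) did not pass. Of the 3372 exon bases of Cpt1b, 2744 overlap those of Gm44502 on the same strand, so its counts are uncertain.

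Among 11 mitochondrial beta-oxidation enzymes, 5 fell and 2 rose in KO retina. Acadvl, the very long-chain acyl-CoA dehydrogenase that takes the first step (chr11:70010183-70015411, minus strand), lay at 153, 172, 154 and 144 CPM in WT and at 82.3, 83.6, 79.9 and 86.3 CPM in KO. The KO values sat close together and far below the WT values, and the log2 fold change of -0.91 (SE 0.05, adjusted p = 2.17e-08) had the smallest adjusted p of the members in this tissue. Hadhb, the beta subunit of the mitochondrial trifunctional protein (chr5:30155248-30184593, plus strand), lay at 15.9, 17.9, 17.8 and 18.5 CPM in WT and at 12.3, 12.8, 10.4 and 11.3 CPM in KO. Its groups did not overlap either (log2 fold change -0.58, SE 0.08, adjusted p = 8.73e-05). Hadha, the alpha subunit (chr5:30118304-30155162, minus strand), lies head to head with Hadhb and lay at 111, 126, 117 and 111 CPM in WT and at 101, 104, 94.2 and 95.5 CPM in KO. It fell less than Hadhb, with a log2 fold change of -0.23 (SE 0.05, adjusted p = 0.00267). Acadm, the medium-chain dehydrogenase, lay at 92.7, 105.0, 92.9 and 89.6 CPM in WT and at 83.3, 84.1, 85.0 and 88.1 CPM in KO. Its groups were apart by a small margin (log2 fold change -0.16, SE 0.05, adjusted p = 0.0259). Hadh, the dehydrogenase for shorter chains, had a log2 fold change of -0.23 (SE 0.08, adjusted p = 0.0428) with overlapping groups, and it passed without KO library 2 but not without any other single library (-0.25 to -0.19, adjusted p = 0.0524 to 0.116). Acadm did not pass without KO library 1, 2 or 3 (-0.16 to -0.15, adjusted p = 0.0543 to 0.0664).

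The enzymes that rose were Acads, the short-chain dehydrogenase, with a log2 fold change of 0.37 (SE 0.11, adjusted p = 0.0233), and Eci2, an enoyl-CoA isomerase, with 0.20 (SE 0.06, adjusted p = 0.0176). Acads did not pass without WT library 1, WT library 4 or KO library 3 (0.31 to 0.37, adjusted p = 0.05002 to 0.0768), nor Eci2 without KO library 1 or 2 (both 0.19, adjusted p = 0.0566 and 0.0532). The long-chain dehydrogenase Acadl, the thiolase Acaa2, the dienoyl-CoA reductase Decr1 and the isomerase Eci1 did not pass, with log2 fold changes between -0.07 and 0.20. Of the peroxisomal pair, the thiolase Acaa1a lay at 135, 144, 138 and 135 CPM in WT and at 120.3, 119, 120.0 and 130.4 CPM in KO, without overlap and with KO library 4 above the other KO libraries. Its log2 fold change was -0.17 (SE 0.04, adjusted p = 0.00540), and the bifunctional enzyme Ehhadh did not pass (0.03, SE 0.14). Etfdh, which hands the electrons of fatty acid oxidation to the respiratory chain, was lower (-0.19, SE 0.05, adjusted p = 0.0157), and its partners Etfa (-0.04, SE 0.07) and Etfb (-0.02, SE 0.10) did not pass. Scaled to library totals, 8 of the 15 lower members no longer passed, namely Appl1, Appl2, Slc25a20, Acadm, Hadh, Hadha, Acaa1a and Etfdh. Exons of Acadvl overlap those of Dvl2 on the opposite strand over 1151 bases, and whether counting used the strand of reads is not stated.

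Promoter windows of 3 members are shown because they carry the largest change of a beta-oxidation enzyme in retina (Acadvl), a head-to-head pair whose subunits fell unequally (Hadha) and the largest change of a member in RPE (Plin2). Each window is the RefSeq sequence from 250 bases before to 50 bases after the annotated start in GRCm38.p6, written 5′ to 3′ on the strand of the gene, with capitals marking the hexamer AGGTCA of nuclear receptor sites or its reverse complement TGACCT. Acadvl is on the minus strand at chr11:70015379-70015678, Hadha on the minus strand at chr5:30154931-30155230 and Plin2 on the minus strand at chr4:86670010-86670309.
Acadvl: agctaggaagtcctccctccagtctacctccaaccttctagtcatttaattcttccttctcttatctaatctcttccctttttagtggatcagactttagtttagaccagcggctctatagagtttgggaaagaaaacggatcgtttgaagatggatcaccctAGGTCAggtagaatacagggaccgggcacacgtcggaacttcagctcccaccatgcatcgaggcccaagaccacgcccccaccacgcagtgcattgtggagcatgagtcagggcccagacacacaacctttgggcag
Hadha: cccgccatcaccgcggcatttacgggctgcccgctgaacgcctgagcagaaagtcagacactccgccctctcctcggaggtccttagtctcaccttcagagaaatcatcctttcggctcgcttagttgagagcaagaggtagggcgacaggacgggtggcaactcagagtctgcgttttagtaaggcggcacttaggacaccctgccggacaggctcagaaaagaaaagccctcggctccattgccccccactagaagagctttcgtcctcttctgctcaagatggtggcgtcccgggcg
Plin2: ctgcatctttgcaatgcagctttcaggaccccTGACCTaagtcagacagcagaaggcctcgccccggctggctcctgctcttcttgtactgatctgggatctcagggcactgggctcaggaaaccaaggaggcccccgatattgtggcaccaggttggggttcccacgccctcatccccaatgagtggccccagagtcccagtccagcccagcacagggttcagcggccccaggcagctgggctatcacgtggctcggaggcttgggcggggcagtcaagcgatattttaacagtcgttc
The hexamer, searched on both strands, stood at base 164 of the Acadvl window and, as TGACCT, at base 33 of the Plin2 window, and was not among the letters of the Hadha window. It was found in 6 of the 34 members with a window (Acadm, Acadvl, Cpt1a, Cpt1c, Plin2 and Pparg), and in 5340 of all 32851 windows (16.3%). The full PPAR element AGGTCANAGGTCA, in which N is any base, was in none of the 37 windows of the members and in 13 of all windows (0.0396%). The Hadha and Hadhb windows share 228 bases, their RefSeq starts being 273 bases apart. The gene spans given above, from another annotation, start closer together, at 30155162 for Hadha and at 30155248 for Hadhb.

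The members listed under the role of PPAR target genes went the other way in KO retina from Ppara itself, with 5 of 7 higher and none lower. This holds for that role only, and the roles were chosen with earlier results of these data known. Fatty acid oxidation genes, which PPAR alpha also drives, were listed under other roles, and of the 11 mitochondrial enzymes 5 fell and 2 rose. Plin2, the lipid droplet coat protein, lay at 6.97, 7.30, 6.14 and 6.2 CPM in WT and at 9.04, 9.26, 9.44 and 9.21 CPM in KO. The KO values were nearly equal and all above the WT values (log2 fold change 0.47, SE 0.08, adjusted p = 6.95e-04). Ucp2, an inner-membrane carrier of mitochondria, lay at 9.46, 12.9, 10.5 and 12.5 CPM in WT and at 16.3, 21.9, 16.4 and 15.6 CPM in KO. The groups were apart, KO library 2 being the highest, with a log2 fold change of 0.63 (SE 0.12, adjusted p = 0.00133). Without that library, which held muscle and choroid RNA as given with Pdk4 below, Ucp2 was at 0.51 (adjusted p = 0.00128). Exons of Ucp2 overlap those of Dnajb13 on the opposite strand over 305 bases. Acot2, a mitochondrial acyl-CoA thioesterase, lay at 1.73, 1.66, 1.28 and 2.25 CPM in WT and at 2.86, 2.97, 2.88 and 2.73 CPM in KO, also without overlap (0.72, SE 0.16, adjusted p = 0.00396). Its cytosolic neighbour Acot1 lay at 1.97, 2.36, 2.00 and 2.36 CPM in WT and at 3.65, 2.76, 2.64 and 3.15 CPM in KO, all KO values again being higher (0.49, SE 0.14, adjusted p = 0.0193). Acot1 did not pass without WT library 1, WT library 3 or KO library 1 (0.39 to 0.45, adjusted p = 0.0570 to 0.0667). Acot1 and Acot2 lie side by side on chromosome 12 and are close paralogs, so reads may have been split between them.

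Pdk4, the kinase that shuts off pyruvate dehydrogenase, was at the low end of detection in retina. It lay at 0.374, 0.282, 0.377 and 0.282 CPM in WT and at 0.687, 1.26, 0.440 and 0.505 CPM in KO, and KO library 2 was far above the rest. That library also held more RNA of other tissues than the other KO retinas, with summed markers at 96.4 CPM against 5.47 to 8.09 CPM for striated muscle, 112 CPM against 33.7 to 38.5 CPM for choroid and fibroblasts, and 54.6 CPM against 28.3 to 36.7 CPM for melanocytes, and the part of this RNA in the result was not tested. The log2 fold change was 1.16 (SE 0.35, adjusted p = 0.0248), and without KO library 2 it was 0.75 (adjusted p = 0.0850). It did not pass either without WT library 2 (1.09, adjusted p = 0.0571) or without WT library 4 (1.09, adjusted p = 0.0665). Angptl4, an inhibitor of lipoprotein lipase (-0.24, SE 0.20), and Acsl1, which activates long-chain fatty acids to acyl-CoA (-0.09, SE 0.05), did not pass.

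**Figure D2:**
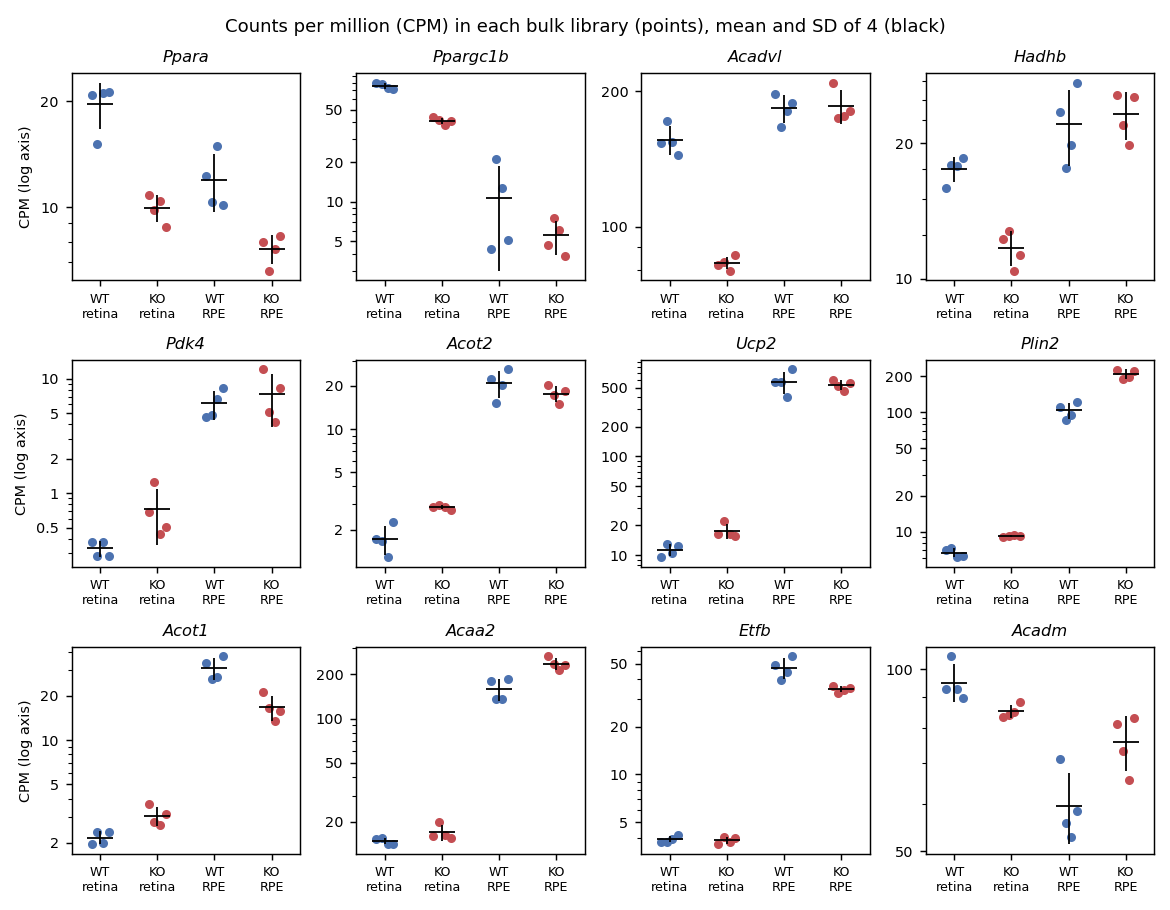
CPM of 12 members in every bulk library, on a log axis, with points for libraries, horizontal marks for the mean and vertical bars for the SD of 4 libraries. Ppara, Ppargc1b, Acadvl and Hadhb had every KO retina below every WT retina, and Plin2 had every KO library above every WT library in both tissues.

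In the RPE at P30, few members passed the threshold. The RPE test recovered 49% of simulated 2-fold changes and the retina test 92.5%, so changes in RPE may have been missed. Plin2 and Acaa2 were higher in KO, Acot1, Ppara and Etfb were lower, and 35 of 40 did not pass edgeR's quasi-likelihood test. Over the 18989 genes tested in RPE, 2.84% were higher and 3.89% lower. The DEG limit was met by Plin2, Acot1 and Ppara, and by 4.97% of all genes. The median log2 fold change was 0.01 over the members and -0.02 over all genes. Without overlap between the groups, 3 members lay above (7.37% of all genes) and 3 below (7.81% of all genes).

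Plin2 (chr4:86648386-86670060, minus strand) lay at 111, 86.7, 95.4 and 121 CPM in WT RPE 1 to 4 and at 227, 189, 196 and 223 CPM in KO RPE 1 to 4. The lowest KO library was well above the highest WT library. The log2 fold change was 1.01 (SE 0.12, adjusted p = 0.00247), and Plin2 passed under every alternative tried in this tissue. Acaa2, the mitochondrial thiolase of the last step of beta-oxidation, lay at 181, 136, 135 and 186 CPM in WT and at 264, 236, 213 and 232 CPM in KO. Its groups were apart, with a log2 fold change of 0.57 (SE 0.13, adjusted p = 0.0384).

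Acot1 lay at 33.8, 26.1, 26.8 and 37.2 CPM in WT RPE and at 21.2, 16.6, 13.4 and 15.9 CPM in KO RPE. All KO values were lower (log2 fold change -0.88, SE 0.17, adjusted p = 0.0203), while Acot2 overlapped between the groups (-0.24, SE 0.17, adjusted p = 0.466). Ppara lay at 12.3, 10.3, 14.9 and 10.2 CPM in WT and at 7.98, 6.62, 7.64 and 8.29 CPM in KO. It was the only member lower in KO in both tissues (-0.64, SE 0.15, adjusted p = 0.0413), and its adjusted p was 0.0556 in the fit blocked by replicate number. Etfb, the beta subunit of electron transfer flavoprotein, lay at 49.2, 39.4, 44.5 and 55.6 CPM in WT and at 36.1, 32.9, 34.3 and 35.0 CPM in KO. The KO libraries were close together below the WT libraries (-0.45, SE 0.10, adjusted p = 0.0427), and exons of Etfb overlap those of Gm45233 on the same strand over 617 bases. With that block, Acadm passed as well (log2 fold change 0.35, adjusted p = 0.0455), against an adjusted p of 0.121 in the reported edgeR test. Acadm also passed with DESeq2 (0.35, adjusted p = 0.0219), with all 16 libraries in a joint edgeR fit (0.37, adjusted p = 0.00794) and without WT library 1 (0.45, adjusted p = 0.0263).

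The other 4 calls in RPE depended on single libraries. Without KO library 2 or KO library 4 none of the 4 passed, and without WT library 3, KO library 1 or KO library 3 only Acot1 of the 4 did. Ppara and Etfb did not pass without WT library 1, Acaa2 without WT library 2, and Etfb without WT library 4. In the fits where each missed, the log2 fold change was -0.87 and -0.86 for Acot1 (adjusted p = 0.0624 and 0.0753), -0.68 to -0.52 for Ppara (0.0553 to 0.123), 0.50 to 0.62 for Acaa2 (0.0501 to 0.114) and -0.47 to -0.36 for Etfb (0.0612 to 0.120). Rod RNA was uneven among the RPE libraries: the summed rod markers lay between 954 and 15144 CPM in WT and between 621 and 5169 CPM in KO, with libraries 2 and 3 of each genotype high. Ppargc1b was likewise higher in libraries 2 and 3 of each genotype, at 4.38, 21, 12.6 and 5.08 CPM in WT and 4.70, 7.52, 6.12 and 3.84 CPM in KO, and did not pass (log2 fold change -0.96, SE 0.51, adjusted p = 0.338). With the summed rod marker level as a covariate, chosen after seeing the data, the same 5 members passed, and in libraries 1 and 4 alone, 2 per genotype, Plin2 passed (0.97, adjusted p = 0.0335). The other 4 did not pass in those libraries, with log2 fold changes of -0.93 for Acot1 (adjusted p = 0.108), -0.55 for Etfb (0.0793), -0.46 for Ppara (0.269) and 0.45 for Acaa2 (0.122). Microglia and macrophage markers summed to 435 to 693 CPM in WT RPE and 801 to 891 CPM in KO RPE, with 8 of 10 markers higher, and their part in the result was not tested. Markers of the RPE summed to 31097 to 48290 CPM in WT and 41144 to 43344 CPM in KO.

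The genotype effect differed between the tissues for 10 of the 40 members, by an interaction term fitted over all 16 libraries, and for 8.84% of the 21068 genes tested. The largest differences concerned Acadvl and the thioesterases. Acadvl, lower in KO retina, lay at 197, 167, 181 and 188 CPM in WT RPE and at 209, 175, 176 and 181 CPM in KO RPE, which overlapped, and the effect was 0.94 more positive in RPE on the log2 scale (SE 0.10, adjusted p = 3.2e-05). Acot1, higher in KO retina and lower in KO RPE, had an effect that was more negative in RPE by 1.35 on the log2 scale (interaction -1.35, SE 0.21, adjusted p = 0.00100). Acot2 lay at 22.3, 15.3, 20.2 and 26.0 CPM in WT RPE and at 20.2, 17.2, 14.9 and 18.5 CPM in KO RPE, and its interaction was -0.94 (SE 0.23, adjusted p = 0.0209).

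Hadhb lay at 23.5, 17.6, 19.8 and 27.3 CPM in WT RPE and at 25.6, 21.9, 19.8 and 25.4 CPM in KO RPE, with full overlap, and its interaction was 0.68 (SE 0.17, adjusted p = 0.0195). Acadm lay at 71.1, 55.6, 52.8 and 58.3 CPM in WT RPE and at 81.1, 73.3, 65.7 and 83.2 CPM in KO RPE, where the lowest KO library fell inside the WT range. Its interaction was 0.53 (SE 0.12, adjusted p = 0.0101). Striated muscle markers summed to 1690, 1159, 937 and 920 CPM in WT RPE 1 to 4 and to 2245, 774, 809 and 1710 CPM in KO RPE 1 to 4, so WT library 1 and KO libraries 1 and 4, the highest of their groups in Acadm, were also the highest in muscle RNA. The part of muscle RNA in the Acadm values was not tested. Plin2 rose in both tissues and by more in RPE (0.56, SE 0.13, adjusted p = 0.0123). Cpt1a lay at 342, 274, 299.9 and 324 CPM in WT RPE and at 348, 317, 286 and 292 CPM in KO RPE, and its interaction was 0.39 (SE 0.10, adjusted p = 0.0264). Ppargc1a lay at 60.7, 53.6, 59.5 and 59.1 CPM in WT RPE and at 59.7, 59.8, 53.9 and 55.6 CPM in KO RPE, with an interaction of 0.37 (SE 0.08, adjusted p = 0.00687). Both genes overlapped between genotypes in RPE.

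Acaa1a lay at 124, 121, 125 and 125 CPM in WT RPE and at 129, 123, 134 and 126 CPM in KO RPE, with an interaction of 0.24 (SE 0.07, adjusted p = 0.0325). Etfb, which lay between 3.77 and 4.12 CPM in WT retina and between 3.63 and 4.01 CPM in KO retina, had an interaction of -0.40 (SE 0.12, adjusted p = 0.0453). The Ppara effect, lower in both tissues, was not among the members that differed. Of the 10, the RPE effect was more positive for 7 and more negative for 3, and scaled to library totals 10 differed with 5 in each direction.

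In WT mice, the members separated the tissues widely: 29 were higher in RPE than in retina and 7 were lower, where 43.0% of all genes were higher and 41.6% lower. Levels here are CPM scaled together over the 16 libraries, divided by exon length in kb where genes are compared. Of the PPAR target genes, Ucp2 was 62.6-fold, Angptl4 27.6-fold, Pdk4 22.7-fold, Plin2 19.2-fold, Acot1 17.6-fold and Acot2 14.9-fold higher in RPE. Of the oxidation enzymes, Acaa2 was 13.4-fold, Acadl 13.2-fold and Eci1 12.5-fold higher, and Etfb was 15-fold higher. Pparg was 49.6-fold higher from a retinal level near 0, at 0.0555 CPM in WT retina and 2.98 CPM in WT RPE. Ppargc1b went the other way, 5.60-fold lower in RPE. The RPE libraries held uneven rod RNA, as given above, and the part of that RNA in the Ppargc1b value was not tested. Appl1 was 3.11-fold lower and its relative Appl2 3.11-fold higher in RPE.

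Within a tissue, the dehydrogenases of the first step stood at different levels. Per kb of exon, Acadvl was at 52.0 CPM in WT retina, above Acadm (21.7 CPM), Acadl (5.67 CPM) and Acads (1.58 CPM). In WT RPE, Acadvl was at 75.8 CPM and Acadl at 74.7 CPM, with Acads at 17.1 CPM and Acadm at 16.8 CPM. The highest member per kb was Acadvl in WT retina and Appl2 in WT RPE, at 123.6 CPM per kb. The direction between tissues for Prkag1, Ppargc1a and Acaa1a depended on the scaling: their log2 differences of 0.18, 0.16 and 0.15 became -0.084, -0.10 and -0.11 with library totals.

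**Figure D3:**
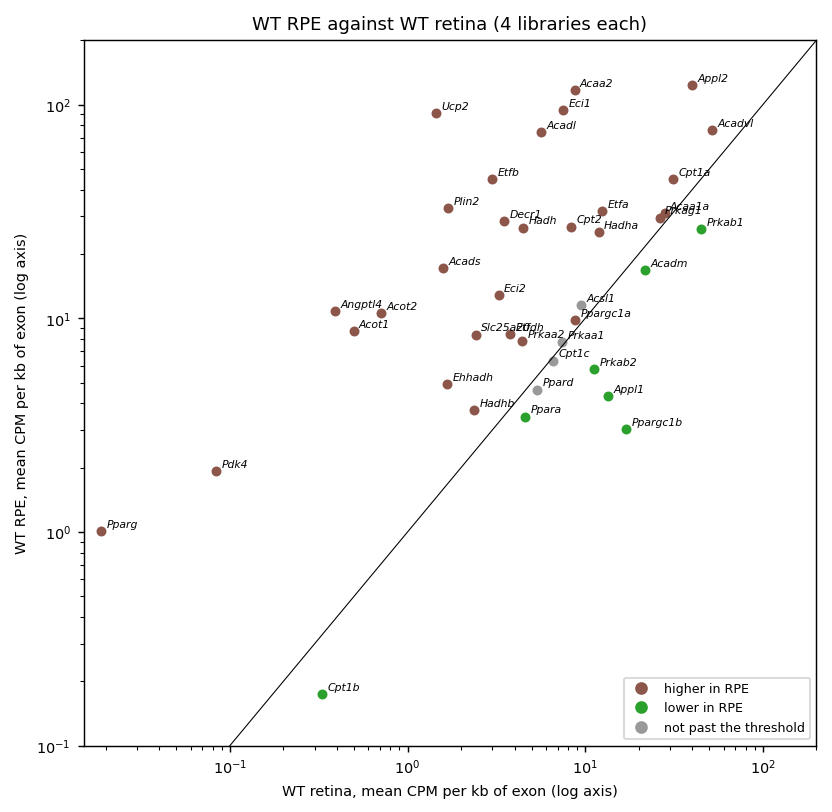
Mean level of each member in WT retina and WT RPE at P30 (4 libraries each), in CPM scaled together and divided by exon length in kb, on log axes. Most members lie on the RPE side, with Ucp2, Pparg and Angptl4 farthest from the diagonal, and Ppargc1b and Appl1 lie on the retina side.

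The single-cell libraries placed the members in cell classes, named here from marker genes after clustering. Of the 36 members with at least 100 UMIs in the WT cells of the 5 largest classes, 14 had their highest WT level in rod-like cells, 15 in Müller glia-like cells, 3 in amacrine-like, 2 in bipolar-like and 2 in cone-like cells. These ranks rest on the mean of 3 WT libraries of different age, and the same class was highest in each of the 3 for 8 of the 14 rod members and 12 of the 15 Müller members. The WT values of the top class all lay above those of the next class, whatever the age, for 3 rod members (Prkab1, Ppara and Hadha) and 11 Müller members. The rod group held Ppara, Ppargc1b, Prkab1, Cpt1a, Acadvl, Acadm, Hadha and Hadhb, and the Müller group held Acadl, Acads, Acaa2, Hadh, Eci2, Plin2, Acot1, Acot2 and Ucp2. Values in cells are UMI CPM (UMIs per 1000000 UMIs of a class in a library), here as the mean of the 3 WT libraries. Ppara was at 26.9 in rods and at 3.74 in Müller glia, its next highest class, and Ppargc1b was at 167 in rods and 52.5 in bipolar cells. Acaa2 was at 175 in Müller glia and 8.75 in rods, and Acadl at 121 and 3.24. Endothelial-like cells, a class too small to test, had a higher mean of Acadl than Müller glia.

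The members that were lower and those that were higher in KO bulk retina differed in the class that held their highest WT level. Of the 15 members lower in KO retina, 9 had their highest WT level in rods and 3 in Müller glia. Of those 9, Acadm, Hadhb and Etfdh were highest in rods in only 2 of the 3 WT libraries, and Acadm was nearly level with cones (154 against 151 UMI CPM). Of the 8 that were higher, 6 had it in Müller glia, 1 in amacrine cells and none in rods, and Pdk4 had fewer than 100 UMIs. The WT rod level relative to the mean of the other 4 classes had a median of 2.05-fold over the 15 lower members (0.505 to 19.0) and 0.0917-fold over 7 of the higher members (0.0158 to 0.519). Over the members that did not pass it was 0.806-fold. The same shares and ratios were not computed over all genes, so whether this split is particular to the members was not tested. Rod marker RNA was lower in the same KO retinas, as given above. Of 7 Müller glia markers, 5 were higher in KO retina and 1 was lower, and their sum was 3812 to 4092 CPM in WT and 3648 to 3968 CPM in KO. The part of either in the result was not tested.

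Some members were highest in the small classes, which were too small to test. At P19, P25 and P30 the WT libraries held 11, 13 and 1 astrocyte-like cells and 41, 6 and 6 pericyte-like cells. They held 17, 7 and 6 microglia- and macrophage-like and 94, 41 and 8 endothelial-like cells. Each library weighs the same in the means below, so these levels are uncertain. Ucp2 was at 296 UMI CPM in microglia- and macrophage-like cells and at 258 in endothelial-like cells, against 17.2 in Müller glia and 1.81 in rods. Plin2 was at 109 in pericyte-like cells, 76.6 in astrocyte-like cells and 73.9 in microglia-like cells, against 1.07 in rods. Angptl4 was at 127 in endothelial-like cells, Pdk4 at 35.4 in pericyte-like cells, and Acot1 at 68.4 in astrocyte-like cells. In the bulk retinas, where Ucp2, Plin2 and Acot1 rose, summed astrocyte markers went from 53.9 to 67.1 CPM in WT to 244 to 306 CPM in KO, and summed endothelial markers from 259 to 312 CPM to 432 to 457 CPM. Of the single markers, 3 of 5 for astrocytes and 2 of 6 for endothelium were higher and none was lower. Their part in the result was not tested.

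**Figure D4:**
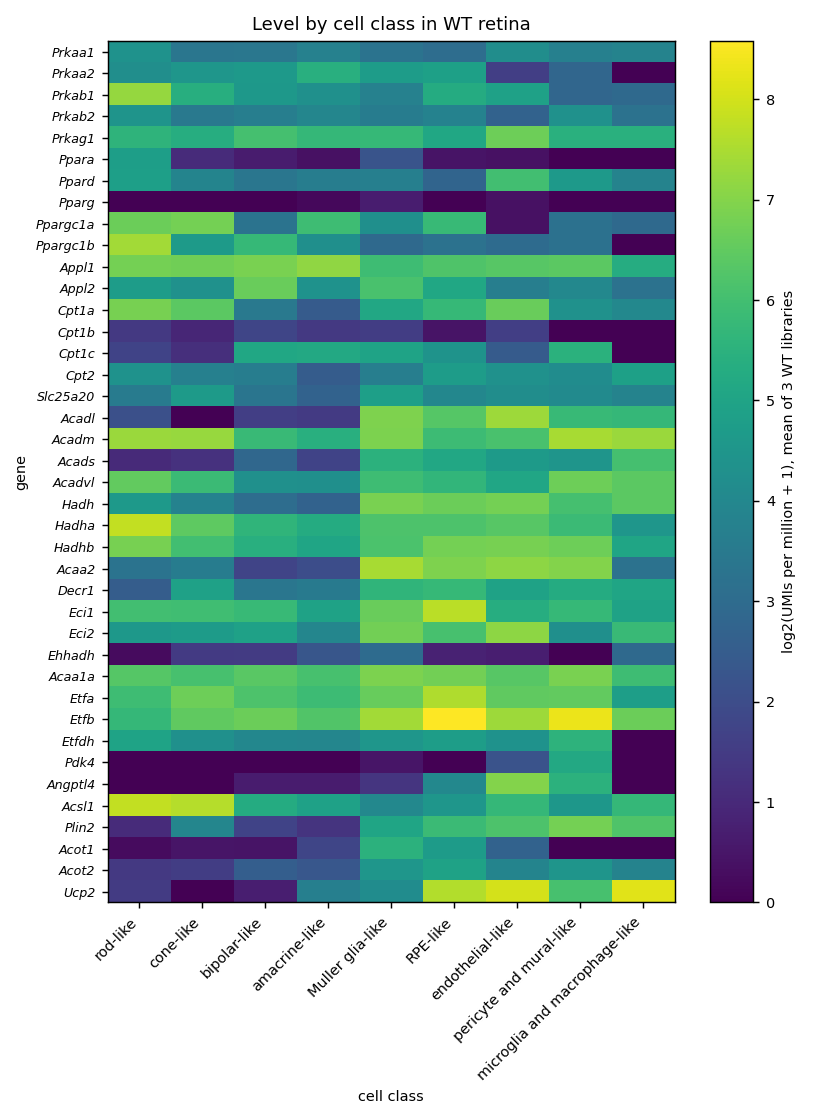
WT level of each member (rows) in 9 cell classes of the single-cell libraries (columns), as the mean of P19, P25 and P30. Colour is log2 of UMI CPM plus 1. Of the 9 classes shown, Ppara and Ppargc1b are highest in rod-like cells and Acaa2 in Müller glia-like cells. Acadl is highest in endothelial-like and Plin2 in pericyte-like cells, classes with 8 and 6 WT cells at P30.

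Within rods, summed over 8115 rod-like cells in 6 libraries, Ppargc1b, the PGC-1 beta gene, was lower in KO. Ppargc1b was at 251, 202 and 48.8 UMI CPM in WT rods at P19, P25 and P30, and at 170, 111 and 35.6 in KO rods. KO was lower at each age, with a log2 fold change of -0.62 over ages (SE 0.14, adjusted p = 0.0141, limma on log values of the sums with age as a block). It was the only member of 30 tested in rods that passed, where 2.08% of the 11669 genes tested were lower and 4.1% were higher. Without P25 no member passed and Ppargc1b was at -0.50 (adjusted p = 0.235), and without P19 it was at -0.65 (adjusted p = 0.0551). Its level at P30, in the separate batch, was below that at the younger ages in both genotypes, and age and batch cannot be told apart, so genotypes are compared only within an age. The WT and KO rods fell largely into different clusters, with clusters 1 and 5 holding most WT rods and clusters 0 and 2 most KO rods.

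Acadm had the opposite sign in rods from that in whole retina. It lay at 142, 166 and 155 UMI CPM in WT rods at P19, P25 and P30 and at 208, 219 and 199 in KO rods, so every KO library was above every WT library. The log2 fold change was 0.43 (SE 0.12, unadjusted p = 0.00359), and the adjusted p of 0.0548 missed the threshold by limma. Hadha lay at 276, 283 and 109.6 in WT and 206, 175 and 96.6 in KO (-0.43, SE 0.13, adjusted p = 0.0798). Acadvl lay at 94.7, 70.7 and 107 in WT and 84.5, 47.3 and 63.1 in KO (-0.49, SE 0.15, adjusted p = 0.0784). Both enzymes were lower in KO at each age without passing in the fit over all ages. Without P30, 3 members passed, namely Ppargc1b and Hadha lower and Acadm higher. Acadvl passed by limma without P19 (-0.66, adjusted p = 0.0490), and Acadm with TMM factors on the sums (0.47, adjusted p = 0.0360).

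Ppara, at 34.8, 37.3 and 8.52 UMI CPM in WT rods and 23.2, 20.6 and 5.93 in KO rods, was measured on 206 UMIs in all. KO was lower at each age (-0.61, SE 0.23, adjusted p = 0.150). Hadhb (-0.29, SE 0.13, adjusted p = 0.248) and Ppard (0.43, SE 0.19, adjusted p = 0.221) also had an unadjusted p below 0.05, making 7 members in all. Of 22 members with at least 200 UMIs in rods, 8 were lower in KO at all 3 ages and 4 were higher, where 19.7% and 26.6% of genes with that many UMIs did so. The 8 were Ppara, Ppargc1b, Appl1, Appl2, Cpt1a, Acadvl, Hadha and Hadhb, and the 4 were Ppard, Cpt2, Acadm and Etfb.

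**Figure D5:**
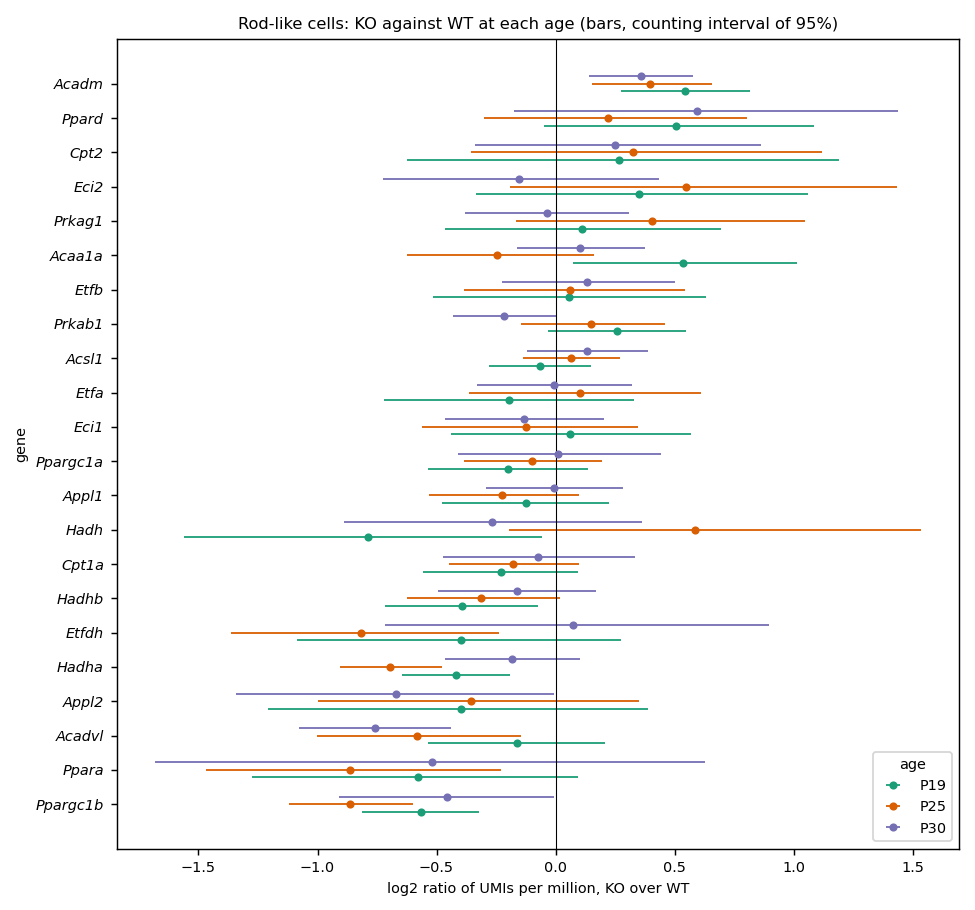
Log2 ratio of UMI CPM, KO over WT, in rod-like cells at P19, P25 and P30, for the 22 members with at least 200 UMIs. Bars are 95% intervals that cover counting error only, with 1 library per genotype and age. Ppargc1b lies below 0 and Acadm above 0 at all 3 ages.

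In Müller glia-like cells (2107 cells), no member of 36 tested passed limma's test, where 0.484% of all genes did, and 5 members had an unadjusted p below 0.05. All 5 had lower estimates in KO: Acaa2, Acads, Acadl, Appl2 and Hadh. Acaa2 lay at 151, 137 and 237 UMI CPM in WT at P19, P25 and P30 and at 108, 90.4 and 92.2 in KO. It was lower in KO at each age (log2 fold change -0.81, SE 0.19, unadjusted p = 0.00287, adjusted p = 0.118), and passed without P19 (-0.97, adjusted p = 0.0245) or without P25 (-0.91, adjusted p = 0.0355). The other 4 had log2 fold changes of -0.82 (Acads, SE 0.28), -0.56 (Acadl, SE 0.18), -0.48 (Appl2, SE 0.17) and -0.46 (Hadh, SE 0.16). Of 24 members with at least 200 UMIs, 13 were lower at all 3 ages and 3 were higher (Etfa, Acot1 and Ucp2), where 27.7% and 15.9% of genes did so. The median log2 fold change was -0.26 over the members tested and -0.07 over all genes. In whole KO retina, in contrast, the bulk value of Acaa2 was 16.9 ± 2.06 CPM against 14.8 ± 0.711 CPM in WT and did not pass.

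No member passed in bipolar-like (34 tested), amacrine-like (37 tested) or cone-like cells (28 tested) by limma, where 0.0671%, 0.0067% and 0.0383% of all genes passed. By the same test the deleted gene Adipor1 passed in bipolar-like (-1.96, adjusted p = 0.00915) and cone-like cells (-1.74, adjusted p = 0.00362). It did not pass in amacrine-like cells (-1.66, adjusted p = 0.0634), so changes of members may have been missed. An unadjusted p below 0.05 was found for Acaa1a in bipolar cells (-0.31, SE 0.11), for Ppargc1a (0.32, SE 0.11) and Etfa (-0.25, SE 0.10) in amacrine cells, and for Acadm in cones. Acadm in cones had the same sign as in rods, at 125, 149.6 and 179 UMI CPM in WT and 136, 225 and 245 in KO at P19, P25 and P30 (0.38, SE 0.13, unadjusted p = 0.0165).

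Of 125 other genes of the pathway tested in retina (AMPK kinases and targets, PPAR partners, further oxidation, transport and lipid droplet genes), 29 were higher and 25 lower by edgeR, beside 16.2% and 14.7% of all genes. The higher ones with the smallest p were Dbi, the acyl-CoA binding protein (log2 fold change 0.72, SE 0.05), Oxct1, which lets cells use ketone bodies (0.51, SE 0.05), the lipid droplet protein Plin3 (0.89, SE 0.11), the fatty acid transporter Slc27a4 (0.41, SE 0.05) and Amacr (0.56, SE 0.08). The lower ones were the orphan receptor Esrrb (-0.89, SE 0.08), the lipid droplet protein Hilpda (-0.70, SE 0.08), the AMPK kinase Camkk2 (-0.59, SE 0.07), Ivd of branched-chain breakdown (-0.38, SE 0.05) and Lpin1, a PGC-1 alpha partner (-0.47, SE 0.06). In RPE, 3 of 130 were higher (Pdk3, Pdk1 and Acad8) and 5 lower (Acsl6, Acsl3, Prkag3, Scp2 and Slc27a2), with log2 fold changes of 0.34, 0.59 and 0.28 and of -0.66, -0.39, -0.91, -0.44 and -3.05. Of all genes, 2.84% were higher and 3.89% lower in RPE. In rods, 9 of 99 passed by limma: Camkk2 (-0.92, SE 0.18) and Esrrb (-0.50, SE 0.13) were lower, and Acsl4 (1.88, SE 0.26), Dbi (1.48, SE 0.25), Nudt19 (0.90, SE 0.25), Oxct1 (0.88, SE 0.16), Acsl3 (0.80, SE 0.13), Amacr (0.79, SE 0.17) and Me1 (0.76, SE 0.14) were higher, where 2.08% and 4.1% of all genes were. None passed in the other 4 classes tested.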

How the data were processed

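Bulk retina and RPE RNA-seq tables were used as deposited: raw counts per Ensembl gene, 1 column per library, made by the authors from TruSeq libraries. The sources used here do not name the aligner or the counting program. The submitters' processing notes name bcl2fastq, FastQC, HOMER, edgeR 3.20.9, Cell Ranger 2.1, Seurat 3.2.2 and the build mm10. Single-cell columns were matched to libraries by name, the prefix AP, the only one beside WT, being read as KO. The deposited single-cell table holds UMIs scaled to 10000 per cell and turned into natural log values, with both operations applied 2 times in a row. Whole UMIs were recovered by undoing both rounds: 66.67% of values were whole after 1 step and 99.99998% after 2 steps. No per-sample columns were left unused (0).

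Genes were kept by edgeR's filter (minimum count of 10), scaled by TMM and tested with edgeR 4.0.16 (quasi-likelihood, R 4.3.3) within each tissue, with Benjamini-Hochberg adjustment over all genes. The tissue comparison and the interaction were fitted over all 16 libraries. DESeq2 1.42.0 and limma 3.58.1 were alternatives, and limma was the test for cells. Cells were clustered with scanpy 1.11.5 and leidenalg 0.10.2 (47 clusters), and clusters were named from marker genes. A total of 1417 cells stayed unnamed, and doublets were not removed. UMIs were summed per library and class, and log values of the sums were tested with age as a block.

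Same-numbered WT and KO libraries deviated together (correlations of 0.16 to 0.22 in retina and 0.29 to 0.66 in RPE). Some differently numbered libraries did so as strongly, while others had negative correlations. In RPE, KO 4 with WT 1 was at 0.62 and KO 3 with WT 2 at 0.52, and in retina KO 4 with WT 3 was at 0.17. A pairing by number is therefore not settled. The reported tests held genotype only, and the block by replicate number was an alternative. Retina and RPE of the same number did not deviate together throughout (0.06 to 0.15 in WT and -0.09 to 0.23 in KO).

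The members, roles and lists were chosen with earlier results of these data known. Every library value is given for members past the DEG limit or past the interaction threshold, and other members past the threshold are named with their fold change. Tested on simulated data with 200 genes changed 2-fold, the bulk tests recovered 92.5% in retina (19381 genes) and 49% in RPE (18989 genes). The tests in cells recovered 93.5% in rods (11669 genes) and 38.5% in Müller glia (12610 genes). They recovered 84.5% in bipolar (13413 genes), 76.5% in amacrine (14931 genes) and 70.5% in cone cells (10449 genes). Only genes above a minimum mean level in bulk, and with at least 200 UMIs in cells, were changed in these simulations. In cells the simulated spread was a fixed one rather than that of the real libraries. The rates therefore do not cover members with fewer counts or changes below 2-fold. Counting intervals cover counting error only.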

Additional observations from a re-analysis of the deposited data

Results flagged for a closer look

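Among 56 groups of 4 libraries looked at, 3 held a library apart from the other 3, and chance alone gives about 1 in 20. Ppara in WT retina library 2 was at 15.2 CPM, with the others between 20.9 and 21.2 CPM. Ucp2 in KO retina library 2 was at 21.9 CPM, with the others between 15.6 and 16.4 CPM, and the same library was at 96.4 CPM of summed striated muscle markers (5.47 to 8.09 CPM in the other KO retinas), 112 CPM of choroid and fibroblast markers (33.7 to 38.5 CPM) and 54.6 CPM of melanocyte markers (28.3 to 36.7 CPM). Acaa1a in KO retina library 4 was at 130.4 CPM, with the others between 119 and 120.3 CPM.

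The KO effect differed between RPE and retina, by the interaction term in edgeR, for 10 members. The RPE effect was more positive than the retina effect for Acadvl (0.94 on the log2 scale), Hadhb (0.68), Plin2 (0.56), Acadm (0.53), Cpt1a (0.39), Ppargc1a (0.37) and Acaa1a (0.24), and more negative for Acot1 (-1.35), Acot2 (-0.94) and Etfb (-0.40).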

How the results depend on the processing

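In retina 23 members passed. With all 16 libraries in a joint fit 11 passed, at a fold change of at least 1.5 there were 6, and leaving out each library in turn gave 19 to 21. In RPE 5 passed, with 3 at a fold change of at least 1.5, between 1 and 4 with a library left out, and 1 in libraries 1 and 4 alone, a choice made after seeing the data. The genotype effect differed between tissues for 10 members, for 7 to 10 with a library left out and for 5 with the replicate block across tissues (Acadm, Acadvl, Hadhb, Acot1 and Acot2). WT RPE against WT retina gave 36 members, 34 to 37 with a library left out, and under library totals Prkag1, Ppargc1a and Acaa1a changed sign, to -0.084, -0.10 and -0.11. In rods 1 passed, 0 to 3 with an age left out and 2 with TMM factors on the sums, and in the other classes 0 passed, or 0 to 1 with an age left out. Where the replicate block within a tissue changed a call (Appl1 in retina, Acadm and Ppara in RPE) its value stands beside the result, with 22 members in retina and 5 in RPE, and it changed no other call. Etfb kept its difference between tissues in 2 of 20 alternatives, Acaa1a in 8 and Cpt1a in 12. The causes were not tested. Depth limits Pdk4, Acot1 and Acot2 in retina and Ppara in rods.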
